A study of Homo sapiens with 24 samples.

Results

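This section describes SWI/SNF peaks at 10 genes whose products switch off mitogen-activated protein (MAP) kinase signalling: the phosphatase genes DUSP1, DUSP4, DUSP5, DUSP6 and DUSP10, the Sprouty genes SPRY1, SPRY2 and SPRY4, and SPRED1 and SPRED2. A peak belongs to a gene when the authors' annotation gives that gene as its nearest transcription start site (TSS). By this rule the 10 genes, of 20033 protein-coding genes, held 39 of 51504 BRG1 peaks, 25 of 22157 BRM peaks and 12 of 6489 SNF5 peaks. The cells were of the established human line RWPE1, which derives from benign prostate epithelium, and were infected with a lentivirus carrying SCHLAP1, a noncoding transcript known from prostate tumours, and selected for at least 1 week in blasticidin at 2.5 ug/mL. SWI/SNF complexes move nucleosomes with either BRG1 or BRM as their motor, and SNF5 is a core subunit of many, not all, of them. The series asked whether the complex remains on chromatin when SCHLAP1 is present. Each subunit was immunoprecipitated from MNase-cut chromatin in 2 samples of SCHLAP1 cells, and 1 peak list per subunit was deposited. The subunit samples used here were all of SCHLAP1 cells, so these lists compare subunits and cannot show an effect of SCHLAP1. The histone mark and input samples, which include cells with the control gene LACZ, were not analysed here. The lists give positions without reads or scores, so the depth is unknown and the spread between the replicates cannot be given. A gene without a peak is a gene without a called peak.

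Growth factor receptors act through RAS to start a cascade of RAF, MEK and ERK kinases, while stress drives the parallel JNK and p38 kinases. Dual-specificity phosphatases (DUSPs) remove the phosphates that activate these MAP kinases, and Sprouty and SPRED proteins act further up, between the receptor, RAS and RAF. Many of these genes are themselves induced by ERK signalling, so that they form a negative feedback loop.

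All 10 genes were named by BRG1 peaks and by BRM peaks, and 6 of them by SNF5 peaks. Over all protein-coding genes, BRG1 peaks named 63.4%, BRM peaks 49.5% and SNF5 peaks 19.6%. The 6 genes with SNF5 (DUSP1, DUSP5, DUSP6, DUSP10, SPRY2 and SPRY4) were named in all 3 lists, as were 17.9% of protein-coding genes. Among protein-coding genes that BRG1 and BRM both named, SNF5 named 37.9%. DUSP4, SPRY1, SPRED1 and SPRED2 had no SNF5 peak. Genes are not replicates, and with 1 list per subunit these shares are set side by side without a test.

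**Figure D1:**
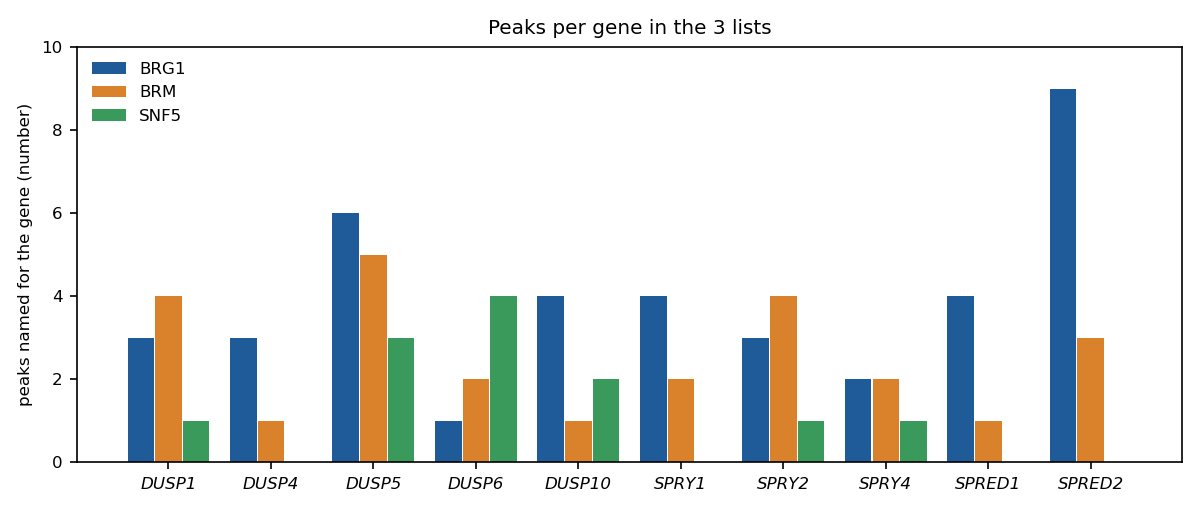
Number of peaks named for each of the 10 genes (vertical axis) in the BRG1, BRM and SNF5 lists (bars). BRG1 counts run from 1 at DUSP6 to 9 at SPRED2, and DUSP6 is the gene with the most SNF5 peaks, 4.

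The genes differed in how many peaks they had and in which list led. A gene had between 1 and 9 BRG1 peaks (median 3.5), 1 to 5 BRM peaks (median 2) and 0 to 4 SNF5 peaks (median 1), against medians of 1, 0 and 0 over all protein-coding genes. Over only the protein-coding genes named in each list, the medians were 2, 1 and 1. SPRED2, the longest of the genes at 125425 bp, had the most BRG1 peaks. DUSP6, one of the shorter genes at 5267 bp, had a single BRG1 peak and the most SNF5 peaks. The widest BRG1 peak of a gene had a median of 2657.5 bp over the 10 genes, and of 1149 bp over all protein-coding genes with a BRG1 peak. For BRM the medians were 1295 and 736 bp and, for the genes with SNF5 peaks, 383 and 233 bp. These are maxima per gene and can rise with the number of peaks. Taken peak by peak, BRG1 peaks of the 10 genes had a median width of 746 bp, where the whole list had 667 bp. Their BRM peaks were close to the list in width (medians of 532 and 547 bp), and their SNF5 peaks were wider (312 and 212 bp).

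**Figure D2:**
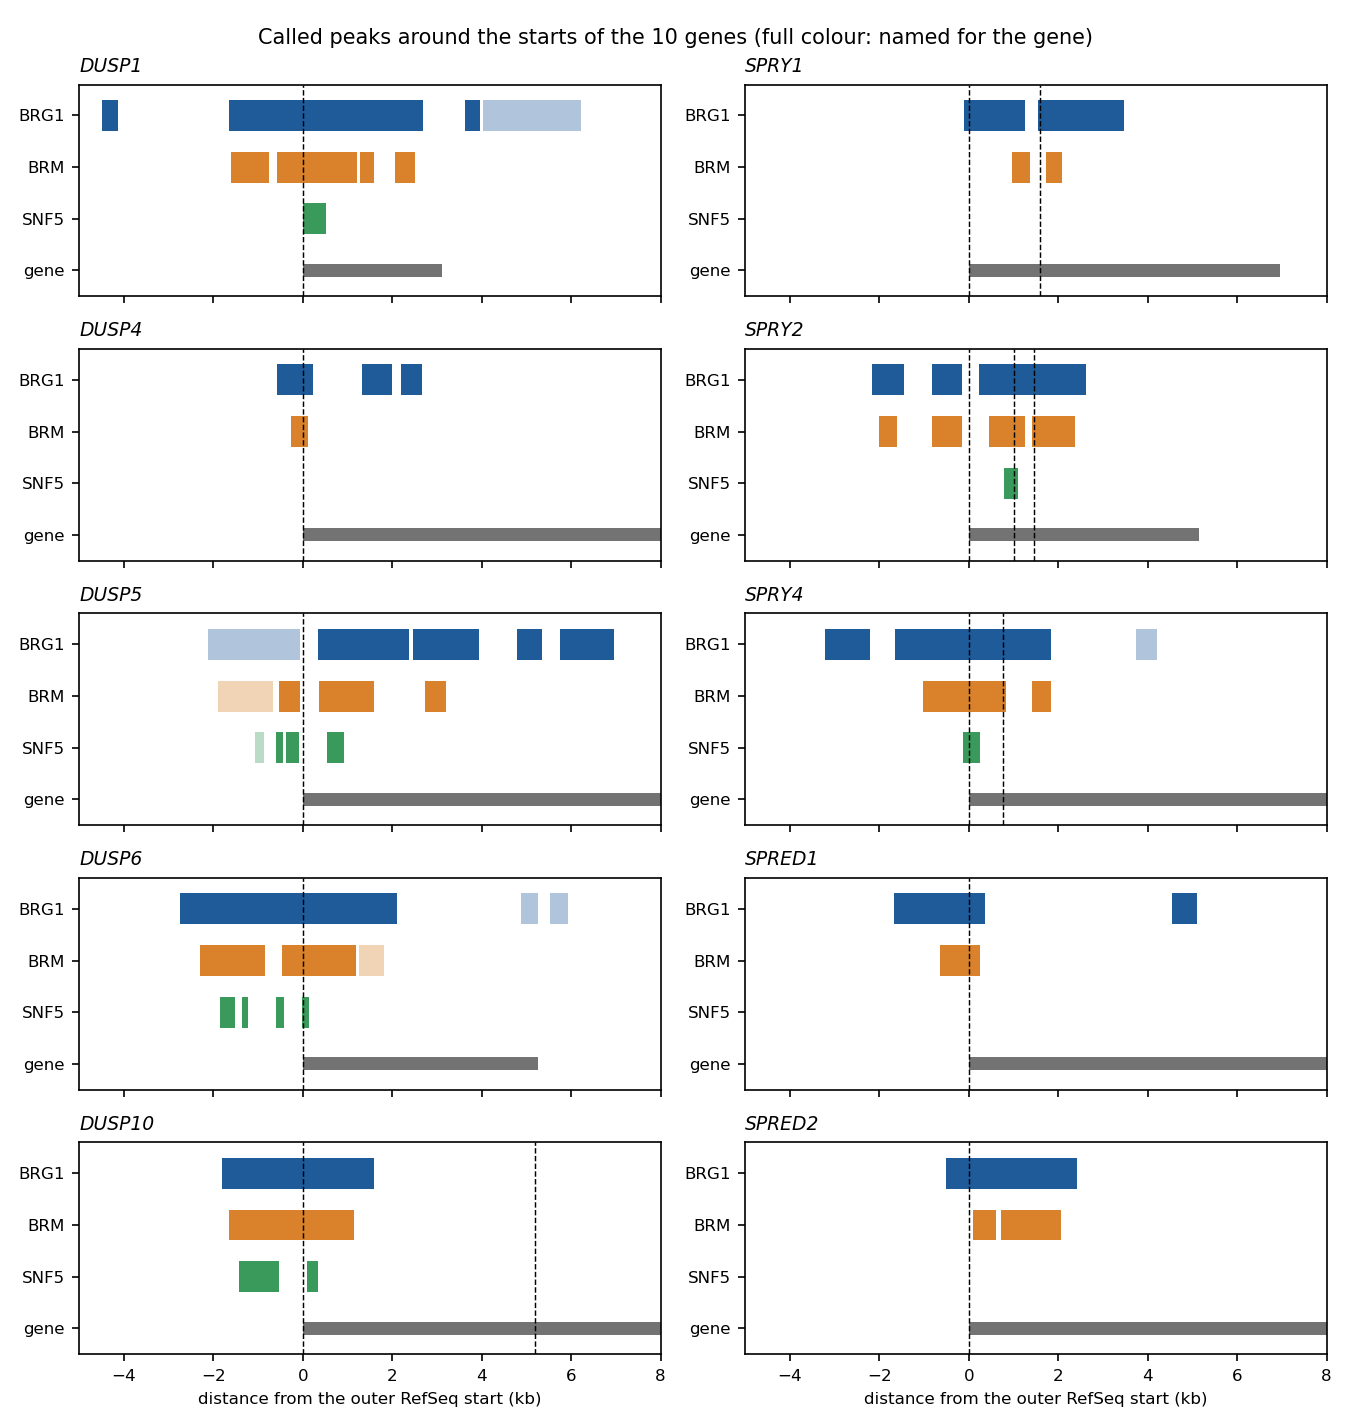
Called peaks of BRG1, BRM and SNF5 (rows) around each gene, with distance from the outer RefSeq start in kb on the horizontal axis and transcription running to the right. Dashed lines are RefSeq starts, grey bars the gene (cut at the right edge), full colour peaks named for the gene and pale colour peaks within 1 kb of it or on it that name another gene. DUSP5 has a gap in every list over its RefSeq start, and DUSP4, SPRY1, SPRED1 and SPRED2 have no SNF5 peak.

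DUSP1 encodes MKP-1, a nuclear phosphatase of ERK, JNK and p38 and an immediate early gene. Its main BRG1 peak was 4344 bp wide (chromosome 5, 172768513 to 172772856, hg38) and wider than 99.8% of the BRG1 list. This peak covered the start of the gene at 172771195, and BRG1 peaks covered 86.5% of the gene, a larger share than in 99.4% of protein-coding genes. Inside it lay 4 BRM peaks of 433, 310, 1802 and 852 bp, of which the 1802-bp peak covered the start. The single SNF5 peak, 523 bp (172770674 to 172771196), lay on the gene side of the start and ended 1 bp beyond it. The other BRG1 peaks of DUSP1 were narrow, 331 and 363 bp, lay 3795 and 4315 bp from the nearest TSS and met neither other list. The 250 bases before the start are shown because BRG1 and BRM peaks cover all of them and the SNF5 peak 1 base of them (RefSeq, GRCh38.p14, chr5:172771196-172771445, minus strand, read 5′ to 3′ toward the start). Capitals mark matches to the motifs searched, in order a GC box (GGGCGG or CCGCCC), another GC box, a cyclic AMP response element (CRE, TGACGTCA) that runs straight into a further GC box, an E-box (CACGTG), the last GC box and a TATA box (TATAAA).
DUSP1: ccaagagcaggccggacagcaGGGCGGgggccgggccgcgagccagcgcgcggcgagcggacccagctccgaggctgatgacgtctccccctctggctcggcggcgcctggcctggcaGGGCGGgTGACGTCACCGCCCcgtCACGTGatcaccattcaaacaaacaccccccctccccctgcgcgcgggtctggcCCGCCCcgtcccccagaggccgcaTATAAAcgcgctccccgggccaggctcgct
The CRE lay at -125 to -118 and the TATA box at -30 to -25, counted back from the start.

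DUSP4, which encodes the nuclear phosphatase MKP-2, had the narrowest leading peaks of the 10 genes in the BRG1 and BRM lists. Its BRG1 peaks were 471, 682 and 824 bp wide, all annotated as promoter, and the widest (29350449 to 29351272 on chromosome 8) covered the start. A BRM peak of 367 bp lay inside that peak. Of the protein-coding genes with a BRG1 peak, 31.1% had a narrower widest peak than DUSP4, and for BRM the share was 10.2%. No SNF5 peak was named for it. The SNF5 list held no peak on chromosome 8 before 47659525, a stretch with 188 BRG1 and 43 BRM peaks and 295 protein-coding genes, so the missing SNF5 peak is shared with the whole stretch. Within 5 Mb of DUSP4 there were 46 BRG1, 8 BRM and 0 SNF5 peaks, the fewest BRG1 peaks around any of the 10 genes. The part of this stretch in the DUSP4 result was not tested. Of the 9 other genes, each had between 5 and 75 SNF5 peaks within 5 Mb, and 6 of the 9 were named by SNF5. Among protein-coding genes with an SNF5 peak of another gene within 5 Mb, SNF5 named 21.9%.

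DUSP5, which encodes a nuclear phosphatase specific to ERK, had 6 BRG1, 5 BRM and 3 SNF5 peaks, the most over the 3 lists. Its start at 110497907 on chromosome 10, taken as the outer end of the RefSeq span, lay in a gap of all 3 lists. The gap ran over 411 bp in the BRG1 list, 435 bp in the BRM list and 615 bp in the SNF5 list. Upstream of it ended a BRG1 peak of 2047 bp (110495795 to 110497841) that the annotation gives to AL355512.1, and downstream began the BRG1 peak of 2018 bp named for DUSP5 (110498253 to 110500270). BRM peaks of 459 and 1226 bp flanked the gap, as did SNF5 peaks of 301 and 386 bp. A further SNF5 peak of 178 bp had its midpoint at -522 bp from this start. The authors' annotation used starts slightly further upstream. It put the 2018-bp BRG1 peak 1421 bp from a TSS, where the midpoint lay 1355 bp from the RefSeq start. The 459-bp BRM peak was 225 bp from a TSS, with its midpoint at -297 bp from the RefSeq start. By these distances the authors' starts lie at the upstream edge of the gap, within the end of the BRG1 peak given to AL355512.1. The BRG1 gap thus holds for the RefSeq start and not for the starts in the authors' annotation. The BRG1 peak annotated as promoter of DUSP5 was another, 559 bp wide and 5057 bp into the gene, 215 bp from a start in the authors' annotation. BRG1 peaks of 1493 and 1202 bp on either side of it were annotated as intron, and beyond the end of the gene a pair of BRG1 peaks of 449 and 386 bp each met a BRM peak.

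DUSP6 encodes MKP-3, the cytoplasmic phosphatase of ERK. Its BRG1 peak was the widest of the 39, 4853 bp (chromosome 12, 89350396 to 89355248), and wider than 99.9% of the list. It covered the start at 89352501. It met 3 BRM peaks, of 568, 1650 and 1451 bp, the first of which the annotation gives to AC024909.3. It also met 4 SNF5 peaks, a number that 54 of 51504 BRG1 peaks (0.105%) reached or passed. That share is over BRG1 peaks of all widths (median 667 bp), and none was taken among peaks of like width. The midpoints of the 4 SNF5 peaks lay at 56, -503, -1297 and -1680 bp from the start, so 3 of the 4 were upstream. They were 151, 179, 151 and 333 bp wide in that order, and 151 bp is the narrowest width in the SNF5 list. A BRG1 peak of 394 bp at the end of the gene was given to AC024909.3. The start lay inside a peak of each list, and the 250 bases before it are shown because BRG1 and BRM peaks cover all of them and an SNF5 peak the last 19 (chr12:89352502-89352751, minus strand). None of the 7 motifs searched had a match, so the sequence has no capitals.
DUSP6: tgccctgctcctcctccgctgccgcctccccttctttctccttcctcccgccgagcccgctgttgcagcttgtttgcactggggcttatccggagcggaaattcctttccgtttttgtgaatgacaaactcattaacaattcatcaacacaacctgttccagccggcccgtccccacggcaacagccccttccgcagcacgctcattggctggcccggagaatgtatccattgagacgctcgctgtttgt

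DUSP10 encodes MKP-5, which acts on JNK and p38 rather than ERK. A BRG1 peak of 3387 bp (chromosome 1, 221740508 to 221743894) and a BRM peak of 2803 bp inside it both covered the outer start at 221742089. That BRM peak was the widest of the 25, and wider than 99.5% of the BRM list. SNF5 peaks of 260 and 902 bp lay on the gene side and upstream, and left 613 bp around the start uncovered. The 902-bp peak was the widest SNF5 peak of the 10 genes and wider than 99.6% of the SNF5 list. The inner RefSeq start at 221736900 lay in no peak. The other 3 BRG1 peaks, 746, 384 and 346 bp wide, lay 44085, 10720 and 16350 bp from a TSS and met neither other list. The bases before the outer start, covered by BRG1 and BRM but not by SNF5, follow (chr1:221742090-221742339, minus strand), with 3 GC boxes in capitals.
DUSP10: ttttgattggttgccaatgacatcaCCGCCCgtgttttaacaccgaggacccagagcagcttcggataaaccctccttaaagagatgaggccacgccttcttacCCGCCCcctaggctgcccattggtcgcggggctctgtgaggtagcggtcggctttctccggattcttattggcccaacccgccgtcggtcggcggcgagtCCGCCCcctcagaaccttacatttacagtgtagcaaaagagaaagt

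The 3 Sprouty genes, whose products block receptor signalling to RAS and RAF, differed from each other. At SPRY4, a BRG1 peak of 3489 bp lay over both starts (chromosome 5, 142323184 to 142326672), a BRM peak of 1850 bp over both starts and an SNF5 peak of 380 bp (142324776 to 142325155) over the outer start at 142325021 alone. A second BRM peak of 421 bp lay inside the gene, and a second BRG1 peak of 1023 bp upstream met neither other list. BRG1 peaks of 331 and 459 bp lay on the gene but were given to SPRY4-IT1_1 and SPRY4-IT1, names of a noncoding RNA within it.

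SPRY2 carried its SNF5 peak at an inner start. The outer start at 80341126 on chromosome 13 lay between BRG1 peaks, in a gap of 375 bp, and in a BRM gap of 618 bp. Downstream of it a BRG1 peak of 2383 bp (80338513 to 80340895) held both inner starts, BRM peaks of 969 and 787 bp, and an SNF5 peak of 323 bp (80340020 to 80340342) over the inner start at 80340108. The 250 bases before that inner start lay wholly in BRG1 and BRM peaks, and 234 of them in the SNF5 peak. Upstream, BRG1 peaks of 691 and 715 bp each met a BRM peak, of 665 and 390 bp, and no SNF5 peak. The 250 bases before the outer start are shown because the gap falls on them, with 106 in a BRG1 peak and 90 in a BRM peak (chr13:80341127-80341376, minus strand). Capitals mark an ETS motif (CCGGAA) and then 2 GC boxes.
SPRY2: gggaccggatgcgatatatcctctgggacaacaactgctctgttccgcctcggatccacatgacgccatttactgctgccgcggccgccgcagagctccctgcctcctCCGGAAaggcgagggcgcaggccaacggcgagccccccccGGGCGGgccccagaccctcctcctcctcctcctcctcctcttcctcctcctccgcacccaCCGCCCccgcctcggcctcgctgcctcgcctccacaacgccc

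At SPRY1, BRG1 peaks of 1374 and 1927 bp (chromosome 4, 123396679 to 123398052 and 123398345 to 123400271) each lay over a RefSeq start. Its BRM peaks were narrow, 412 and 375 bp, and covered neither start. They left 347 bp around the inner start at 123398386 uncovered. BRG1 peaks of 760 and 962 bp, 56346 and 43942 bp from the TSS, met no other list. SPRY1 had no SNF5 peak, with 15 SNF5 peaks within 5 Mb.

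SPRED1 and SPRED2 encode membrane-bound relatives of Sprouty, and SPRED1 is known to bring the RAS-inactivating protein neurofibromin to the membrane. Both are long genes, and neither had an SNF5 peak. Each had 34 SNF5 peaks within 5 Mb. The genes with SNF5 had 5 (SPRY2), 10 (DUSP6), 20 (DUSP5), 43 (DUSP10), 61 (DUSP1) and 75 (SPRY4) in such a window. The start of SPRED1 at 38252836 on chromosome 15 lay in a BRG1 peak of 2045 bp (38251160 to 38253204) and in a BRM peak of 901 bp. Its 3 intron BRG1 peaks, 569, 696 and 338 bp wide, met no BRM peak. The outer start of SPRED2 at 65432599 on chromosome 2 lay in a BRG1 peak of 2932 bp (65430176 to 65433107), and its inner start at 65366778 in another of 1878 bp (65366402 to 65368279). BRM peaks of 1364 and 520 bp lay inside the outer BRG1 peak and stopped 85 bp short of the start, while the inner BRG1 peak met no BRM peak. Of the 6 intron peaks of BRG1 named for SPRED2, 369 to 1231 bp wide, 1 met a BRM peak, of 532 bp. A promoter peak of 498 bp in between met neither other list. A further 5 BRG1 and 2 BRM peaks lay on the gene but were given to AC012370.1, so 14 BRG1 peaks lay on SPRED2 in all. The bases before the outer starts of both genes are shown as the counterpart without SNF5 (chr15:38252586-38252835, plus strand, and chr2:65432600-65432849, minus strand). The capitals mark 1 GC box in SPRED1, and SPRED2 had no match.
SPRED1: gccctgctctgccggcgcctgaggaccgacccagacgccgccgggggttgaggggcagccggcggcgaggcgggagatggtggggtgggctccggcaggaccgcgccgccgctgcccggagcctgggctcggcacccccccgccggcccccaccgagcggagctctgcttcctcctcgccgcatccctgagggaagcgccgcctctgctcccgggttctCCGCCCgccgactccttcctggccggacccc
SPRED2: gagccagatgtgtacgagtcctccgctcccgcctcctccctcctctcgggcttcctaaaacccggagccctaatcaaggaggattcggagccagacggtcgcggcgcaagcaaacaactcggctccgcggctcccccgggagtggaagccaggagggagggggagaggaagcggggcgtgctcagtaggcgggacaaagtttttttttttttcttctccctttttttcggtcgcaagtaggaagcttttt

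RefSeq starts of the genes lay in BRG1 peaks more often than in BRM or SNF5 peaks. The promoter table held 8 of the 10 genes, with 13 starts, and not DUSP4 or DUSP5. A listed start lay inside a BRG1 peak for 8 of these 8 genes, inside a BRM peak for 6 and inside an SNF5 peak for 3. Over the 15842 protein-coding genes in the table the shares were 53.5% for BRG1, 41.8% for BRM and 8.97% for SNF5. SPRY1 and SPRED2 were the genes without a start in a BRM peak. With the outer end of the RefSeq span also counted as a start, which brings in DUSP4, DUSP5 and the outer start of SPRY4, the counts were 9, 7 and 4 of 10. DUSP5 was the gene with no RefSeq start in any peak, although the starts in the authors' annotation lie at the edge of its gap, inside a BRG1 peak. The starts of DUSP4 and DUSP5 were taken as the gene end nearer to their BRM promoter peaks, so that the DUSP4 start lies in a peak is partly set by that choice. Starts that were uncovered but had peaks of 1 list within 1000 bp on each side occurred in 5.56% of the genes in the table for BRG1, 3.81% for BRM and 1.98% for SNF5. For all 3 lists at once this held for 3 of the 15842 genes (GLUD1, LZTS2 and ARHGDIA). The gap at DUSP5 was singled out after its values were seen. DUSP5 is not among the genes in the table and its start was set by another rule, so these shares do not say how rare its gap is.

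Promoter peaks made up 16 of the 39 BRG1 peaks (41.0%, 95% exact binomial interval 25.6 to 57.9), 16 of the 25 BRM peaks (64.0%, 42.5 to 82.0) and all 12 SNF5 peaks (lower bound 73.5%). In the whole lists the shares were 37.3%, 62.8% and 81.3%, all within these intervals. The other 23 BRG1 peaks were 16 intron and 7 distal peaks. The intervals cover counting error only and treat peaks as separate, although peaks of 1 gene share their locus. All 10 genes had at least 1 promoter peak of BRG1 and of BRM, and 6 of SNF5, where 55.5%, 45.6% and 18.1% of protein-coding genes had one. The annotation calls a peak promoter within about 1000 bp of a TSS, and uses more starts than RefSeq, so DUSP5 has a promoter peak 5057 bp into the gene.

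All BRM and SNF5 peaks named for these genes met BRG1 peaks. All 25 BRM peaks met a BRG1 peak by at least 1 bp (lower bound 86.3%), as did 92.2% of the BRM list, and all 12 SNF5 peaks met both a BRG1 and a BRM peak (lower bound 73.5%), against 96.1% and 91.9% of the SNF5 list. At DUSP5, 2 of these SNF5 peaks met the BRG1 peak given to AL355512.1. Of the 39 BRG1 peaks, 17 overlapped BRM (43.6%, 27.8 to 60.4) and 6 overlapped SNF5 (15.4%, 5.86 to 30.5), where 35.7% and 9.58% of all BRG1 peaks did. Both shares of the whole list lie within the intervals. By annotation, 11 of 16 promoter peaks of BRG1 met BRM (68.8%, 41.3 to 89.0), and 6 of 23 others (26.1%, 10.2 to 48.4), against 61.6% and 20.2% in the list.

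As in the whole list, the BRG1 peaks that met both other lists had the largest median width. These 6 peaks ran from 2018 to 4853 bp (median 3438 bp) and lay at DUSP1, DUSP5, DUSP6, DUSP10, SPRY2 and SPRY4. The 11 that met BRM alone ran from 386 to 2932 bp (median 1231 bp), and the 22 that met neither from 331 to 1878 bp (median 579.5 bp). These are 15.4%, 28.2% and 56.4% of the 39 peaks, and over all BRG1 peaks the shares were 9.22%, 26.4% and 64.0% with median widths of 1606, 1038 and 510 bp. The ranges overlap, and the widest peak that met neither was that over the inner start of SPRED2. The peaks at DUSP1 and DUSP6 each met 3 or more BRM peaks, which 0.654% of all BRG1 peaks did. That share is over peaks of all widths, while the peaks at DUSP1 and DUSP6 were 4344 and 4853 bp wide.

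**Figure D3:**
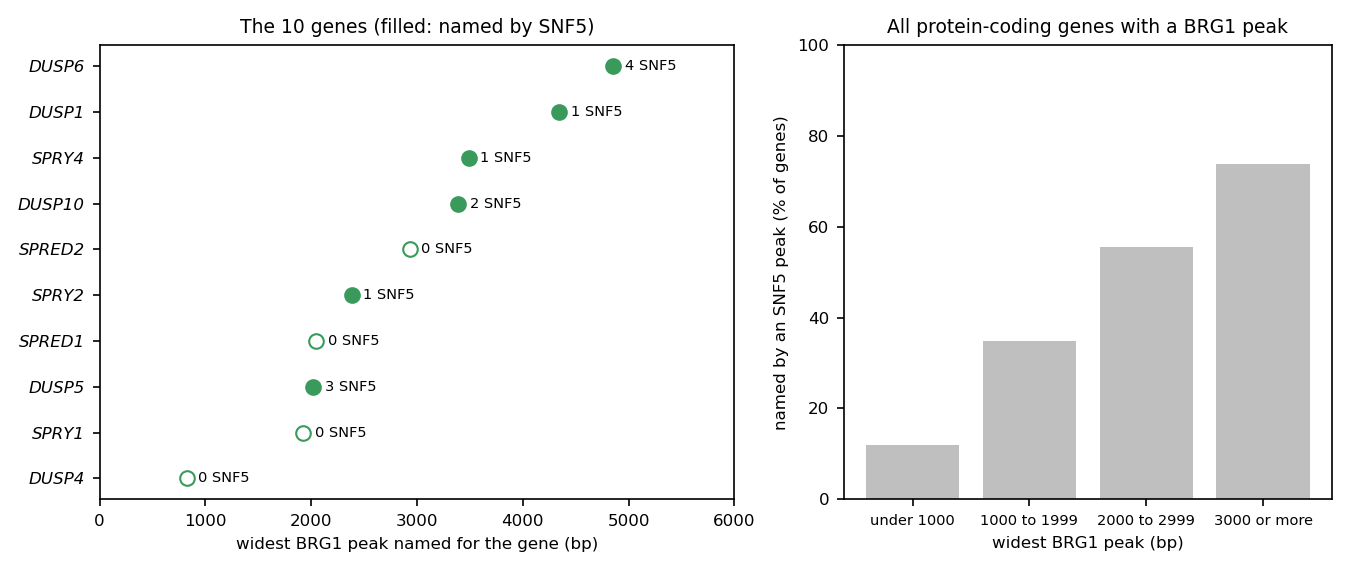
Left, the widest BRG1 peak (bp) named for each of the 10 genes, filled where an SNF5 peak names the gene, with the number of SNF5 peaks. Right, the share of protein-coding genes (%) that an SNF5 peak names, by the width of their widest BRG1 peak (bp). The 4 genes with a BRG1 peak of at least 3000 bp all have SNF5 peaks. From 2000 to under 3000 bp filled and open points mix, and SPRY1 and DUSP4, below 2000 bp, are open.

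Across the 10 genes SNF5 went with the width of the BRG1 peak, as it did over all genes. DUSP6, DUSP1, SPRY4 and DUSP10 had BRG1 peaks of at least 3000 bp and were all named by SNF5, as were 73.8% of the 535 protein-coding genes with such peaks. Of the 4 genes with a widest peak from 2000 to under 3000 bp, SPRY2 and DUSP5 were named by SNF5 and SPRED1 and SPRED2 were not, where 55.6% of 1571 protein-coding genes were named. SPRY1, from 1000 to under 2000 bp, and DUSP4, under 1000 bp, had no SNF5 peak, in classes with 34.8% and 11.9% named. The groups overlap, since SPRED2 with 2932 bp had none and DUSP5 with 2018 bp had 3. These width classes were set after the data were seen.

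Sequence before the starts was as rich in G and C as in promoters at large, with more CpG. The 13 windows of 250 bases had a median of 58.8% G and C (39.2 to 78.4), against 58.0% over 35116 promoters. The ratio of CpG to the number expected from base content had a median of 0.82 (0.21 to 0.913), against 0.558. The lowest ratio belonged to the inner start of DUSP10, which lay in no peak. The inner start of SPRED2, in BRG1 but in no BRM peak, had a ratio of 0.312 and a TATA box at -31 to -26. Motifs were searched on both strands, a palindrome being counted once, and no match shown overlaps another. GC boxes matched in 7 of the 13 windows (42.6% of all promoters), the ETS motif in 2 (14.5%), the TATA box in 2 (10.7%), the CRE in 1 (1.65%) and the E-box in 1 (6.34%). The AP-1 site (TGACTCA or TGAGTCA) and the CArG box matched in 0 of 13, against 4.2% and 1.16% of all promoters. These are matches of letters in a short window and say nothing of binding, and windows of 1 gene are not independent.

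**Figure D4:**
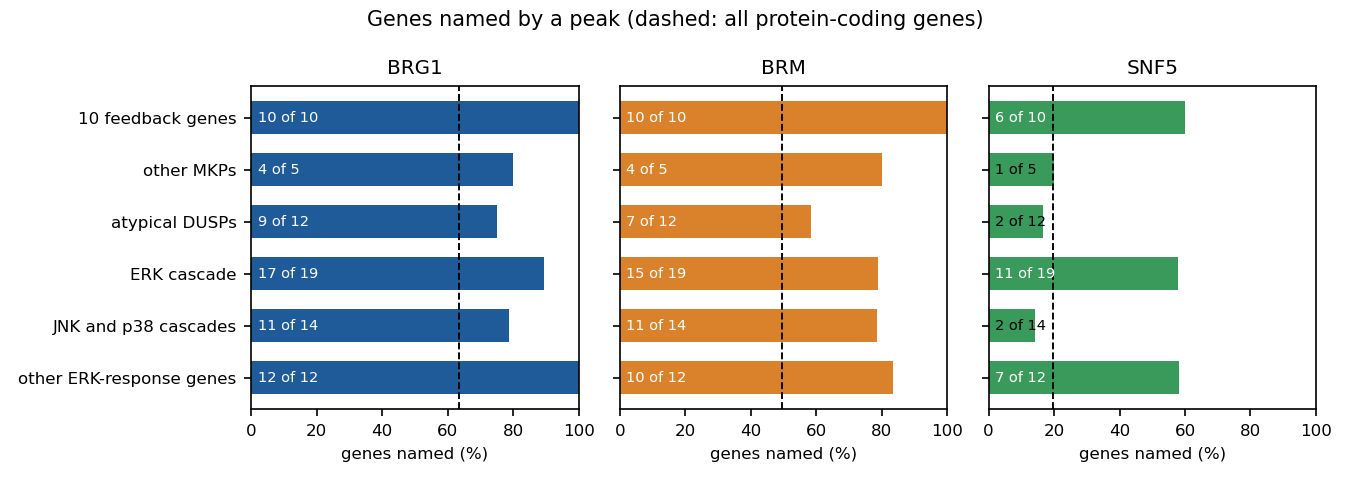
Share of genes (%) in each list that a BRG1, BRM or SNF5 peak names, with the counts in the bars and all protein-coding genes as dashed lines (63.4, 49.5 and 19.6%). The SNF5 bars of the 10 feedback genes, the ERK cascade and other ERK-response genes lie near 60%, and those of the other MKPs (20.0%), atypical DUSPs (16.7%) and JNK and p38 cascades (14.3%) near or below the dashed line.

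For other genes of the pathway, counts are given in the order BRG1, BRM and SNF5. Of 5 other MAP kinase phosphatases (MKPs), BRG1 and BRM named 4 each and SNF5 1, namely DUSP8, which also had the widest BRG1 peak of the list (1894 bp), before DUSP16 (1403 bp) and DUSP2 (1066 bp). DUSP9 had no peak. Of 12 atypical DUSPs, phosphatases without the docking domain for MAP kinases, 9, 7 and 2 were named. DUSP11 (2085 bp), DUSP14 (1888 bp) and DUSP23 (1370 bp) had the widest BRG1 peaks, and DUSP18, DUSP21 and DUSP26 had none. SPRED3 had 2 BRG1 peaks and no other, and SPRY3 had none. The 19 genes of the ERK cascade, from the receptor adaptors to the kinases, were named in 17, 15 and 11 cases. SHC1, a receptor adaptor (2735 bp), RASA1, a RAS GTPase-activating protein (2613 bp), and MAP2K1, the kinase MEK1 (2418 bp), led, and ARAF had no peak.

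Of 14 genes of the JNK and p38 cascades, 11, 11 and 2 were named. MAP2K3, a kinase that activates p38, led with a BRG1 width of 4569 bp but had no SNF5 peak, followed by MAP3K1 (3266 bp) and MAPK14, which encodes p38 alpha (2150 bp). MAPK11 and MAPK12 had no peak. Of 12 other genes that respond to ERK, 12, 10 and 7 were named. The widest BRG1 peak was 4654 bp at CCND1, which encodes cyclin D1 and had 1 SNF5 peak. EGR1, an immediate early transcription factor, followed with 4352 bp and 5 SNF5 peaks, and PHLDA1 with 3587 bp and 2 SNF5 peaks. Some genes without SNF5 had no SNF5 peak of any gene within 5 Mb, among them the atypical DUSP18, DUSP21 and DUSP26, and DUSP9, SPRY3, LRIG1 and DUSP4. The lists are described by their counts, and no difference between them was tested.

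By numbers of peaks, the protein-coding genes most like DUSP5 (6, 5 and 3 in the BRG1, BRM and SNF5 lists) were ALDH3B1 (6, 5, 2), CIZ1 (5, 5, 3) and FOXA1 (6, 6, 3), with a summed difference of 1 peak over the 3 lists. They are the first by alphabet of 15 genes at that difference.

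As a check of the cell type, 7 of 8 basal epithelial genes were named by BRG1, with the widest peaks at COL17A1 (4171 bp), KRT5 (3479 bp) and LAMB3 (3147 bp), and 7 by BRM and 3 by SNF5. The widest BRG1 peak of KRT14 was 613 bp, ITGA6 had no BRG1 peak and TP63 no BRM peak. Of 7 luminal prostate genes, 3 were named by BRG1 (KRT8 with 2250 bp, KRT18 and TMPRSS2), 2 by BRM and 0 by SNF5, and KLK2 and KLK3 had no peak. All 5 blood genes were named by BRG1, led by CD8A (1010 bp), CD14 and CD79A, 2 by BRM and 0 by SNF5. Of 4 liver genes, CYP2E1 was named by BRG1 and BRM, and ALB, APOA1 and TTR had no peak. Naming by BRG1 did not set the basal list (87.5%) apart from the blood list (100%). Over all protein-coding genes the shares were 63.4% for BRG1, 49.5% for BRM and 19.6% for SNF5. SNF5 peaks were unevenly spread over chromosomes, with 0 on X and 2 on chromosome 22, where BRG1 had 418 and 316.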

How the data were processed

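The 3 deposited peak lists (BRG1, BRM and SNF5 in SCHLAP1 cells) give start, end, width and distance to the nearest TSS in bp for each peak, per the file headers, in hg38. Cells were fixed in 0.3% formaldehyde for 30 min, per the labels' protocols. Bowtie2, SAMtools, MACS2 and deepTools 2.5.2 are named without roles in the submitters' processing notes. The labels name MNase-cut chromatin as the input of the subunit samples. The sources used here do not give the threshold, the filter or whether replicates were pooled.

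The gene names in the lists were looked up in RefSeq (GRCh38.p14) by symbol or unique synonym on the same chromosome (81.3, 86.9 and 90.4% of peaks). Overlaps of at least 1 bp were counted with bedtools 2.31.1, with 95% Clopper-Pearson intervals from scipy 1.17.1, under Python 3.11.15 and pandas 2.3.3, after tests on simulated data. The strand of DUSP4 and DUSP5 was taken from the end of the gene nearest to their BRM promoter peaks. Regional counts reach 5 Mb from the middle of the gene. Of each further gene list, those with the widest BRG1 peak (up to 3) and those named by no peak (up to 3, by alphabet) were named, as were the 3 genes closest in peak counts to the gene with most peaks. Some genes that this rule names are not reported here. The genes and lists were chosen with earlier results of these data known. Alternatives were other rules for giving peaks to genes, wider peaks, equal numbers of peaks, other promoter limits and other overlaps.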

Additional observations from a re-analysis of the deposited data

How the results depend on the processing

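The numbers of the 10 genes named moved little under the alternatives run: 9 to 10 for BRG1, 8 to 10 for BRM and 6 for SNF5. For the alternatives by peak width or by distance to the gene, no share over all protein-coding genes is given. These counts therefore do not show how the 10 genes compare with other genes under those rules. DUSP4 was the gene lost for BRG1 when each list was held to its 6489 widest peaks. Numbers of peaks moved with width. With peaks at least as wide as the median of their list, 24 BRG1 and 12 BRM peaks remained, and among the 6489 widest of each list 10 BRG1 and 11 BRM peaks, by construction of these limits. The promoter share of the BRM peaks was 88.0% within 3 kb of the TSS and 32.0% if a peak had to cover a RefSeq start, and that of the SNF5 peaks was 33.3% by the latter rule. With reciprocal overlap of 50%, which narrow peaks cannot reach on wide ones, 17.9% of BRG1 peaks met BRM and 0% (0 of 39, upper bound 9.03%) met SNF5. With each list held to peaks of at least its median width, 25% (6 of 24) of the BRG1 peaks met SNF5 and 37.5% (9 of 24) met BRM. These lie inside the intervals of the main 15.4% and 43.6%. The share over all BRG1 peaks under this limit is not given, so the 25% has no background beside it. Of the 12 SNF5 peaks, 8 had at least the median width of their list. Restricting the genes to those with an SNF5 peak of another gene within 5 Mb, chosen after seeing the data, left 6 of 9 named by SNF5. No paired analysis was possible because each list holds no values per sample. Without reads or scores, what depth limits cannot be stated.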
